A study of Mus musculus with 24 samples.

Results

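The integrated stress response and its mitochondrial branch were followed through 45 genes in the livers of fasted mice that lacked Rab30, Cpt2 or both. The 45 members were taken by symbol: Atf4 and the factors that act with it, its feedback and effector genes, enzymes of serine, one-carbon, asparagine and proline synthesis, amino acid transporters, 10 cytosolic tRNA synthetases and 6 mitochondrial chaperones and proteases. All 45 symbols were found among the 54532 genes of the count table, in 46 rows, because Ddit3 has a second row without a single count. RNA-seq covered whole livers of 24 male mice fasted for 24 h, 8 to 10 weeks old according to the methods, with 4 livers in each of 6 groups. In Rab30KO mice exon 4 of Rab30 is deleted in all tissues, in a line made with CRISPR-Cas9, and Rab30 Ctrl mice are their wild-type (WT) littermates. Rab30L-/- mice lack Rab30 and Cpt2L-/- mice lack Cpt2, the inner mitochondrial membrane enzyme of long-chain fatty acid oxidation, through a Cre transgene under the albumin promoter that acts on floxed alleles in hepatocytes. DKO mice carry that transgene with both genes floxed, and ff;ff mice are the DKO animals' littermates, floxed at both genes and free of Cre. No label makes ff;ff mice littermates of Cpt2L-/- or Rab30L-/- mice. In comparisons of these groups with ff;ff, and in the interaction, breeding line and Cre cannot be told apart from the loss of Cpt2 or Rab30. Liver cells in which that transgene is not active keep the targeted genes in the Cre lines.

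ATF4 is a transcription factor whose protein is made more efficiently when the initiation factor eIF2 is phosphorylated, which happens on amino acid shortage, endoplasmic reticulum stress or failure of mitochondria. Its messenger is therefore only one of the levels at which it is controlled. With CHOP (Ddit3) and C/EBP partners it binds composite C/EBP-ATF response elements at genes for amino acid uptake, amino acid synthesis and charging of tRNAs, while chaperones and proteases of the mitochondrial matrix make up the mitochondrial unfolded protein response.

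Libraries held between 11801027 and 24497738 counts, with a median of 14358966, and every pair of libraries of a group differed by more than counting noise. Levels are given as CPM, counts scaled to library size with TMM, and a gene was called when edgeR's quasi-likelihood test gave an adjusted p under 0.05, Benjamini-Hochberg over all genes tested, with at least a 1.2-fold change. Counts over the whole of a targeted gene, which can include exons that a deletion leaves in place, followed the genotype in part. Rab30 lay between 5.39 and 17.4 CPM in Rab30KO and between 6.64 and 30.1 CPM in Rab30 Ctrl, between 10.4 and 26.6 CPM in Rab30L-/- and between 25.9 and 44.6 CPM in ff;ff, and between 101 and 231 CPM in DKO and 122 and 188 CPM in Cpt2L-/-. Cpt2 lay between 95.3 and 167 CPM in Cpt2L-/-, between 96.1 and 120 CPM in DKO, between 128 and 139 CPM in ff;ff and between 170 and 268 CPM in Rab30L-/-. Cpt2 was thus lower in every DKO liver than in any ff;ff or Rab30L-/- liver, whereas Cpt2L-/- overlapped ff;ff for Cpt2, and for Rab30 each group without it overlapped its comparison group. Groups are those of the labels throughout, and each direction is one between the libraries labelled so. Hepatocyte markers were the most abundant of the marker lists in every group, with 6 markers summing to between 47800 and 126000 CPM.

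Promoters of members were searched for TGATGNAA on either strand (TTNCATCA on the other), the 8-base form of the C/EBP-ATF response element, in the 250 bases before each RefSeq start (GRCm38.p6). A window was at hand for 39 of the 45 members. The letters occurred before 11 of these 39 (28.2%) and before 1056 of the 27025 genes with a window (3.91%). Many members were chosen for their link to ATF4, so the difference between these shares is no independent test of its action. Of the 12 members called higher in both comparisons of Cpt2 loss that share no liver, 10 had a window and 4 held the motif. Those 4 are shown because their RNA rose in both comparisons, followed by 2 holders of the motif, Asns and Aars, that were called in no comparison and were chosen after their values were seen. Each run is given 5′ to 3′ on the strand of its gene and the capitals mark the motif.
Nupr1 (chr7:126625528-126625625, minus strand): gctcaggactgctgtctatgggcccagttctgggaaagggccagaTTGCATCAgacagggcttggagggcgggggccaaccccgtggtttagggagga
Atf3 (chr1:191183391-191183488, minus strand): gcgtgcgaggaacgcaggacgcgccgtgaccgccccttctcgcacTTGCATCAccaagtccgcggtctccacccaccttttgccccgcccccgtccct
Tars (chr15:11399659-11399718, minus strand): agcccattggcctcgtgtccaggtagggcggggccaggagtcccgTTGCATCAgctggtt
Gars (chr6:55037926-55038000, plus strand): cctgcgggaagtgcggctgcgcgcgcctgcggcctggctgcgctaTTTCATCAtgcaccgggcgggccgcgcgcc
Asns (chr6:7693210-7693277, minus strand): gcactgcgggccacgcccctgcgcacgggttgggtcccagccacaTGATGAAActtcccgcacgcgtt
Aars (chr8:111033685-111033782, plus strand): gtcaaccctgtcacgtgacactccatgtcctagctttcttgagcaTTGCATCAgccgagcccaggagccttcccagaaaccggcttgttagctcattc
The motif began 110 bases before the start in Nupr1 and Atf3, 112 in Aars, 30 in Gars, 23 in Asns and 15 in Tars. Besides Asns and Aars, the letters were found before 5 members outside the 12, Chac1, Slc7a11, Pycr1, Pck2 and Vldlr, and Slc7a11 held them at 2 places.

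The clearest change in this module accompanied the loss of Cpt2. Of the 41 members tested in Cpt2L-/- against ff;ff, 17 were called higher and 1 was called lower, where 11.9% of all 13270 genes tested were called higher and 11.9% lower. The median log2 fold change was 0.43 over the members and -0.0035 over all genes. Nupr1, Psat1, Atf3, Mthfd2 and Trib3 rose most, while the mitochondrial chaperones and proteases were not called. In 18 members every Cpt2L-/- liver lay above every ff;ff liver, and in 2 members every one lay below, which was so for 14.2% and 12.5% of all genes. The 4 members left out by the filter on low counts were Stc2, Phgdh, Pycr1 and Slc7a11. In bulk liver, fewer cells of a type and less RNA per cell cannot be told apart.

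**Figure D1:**
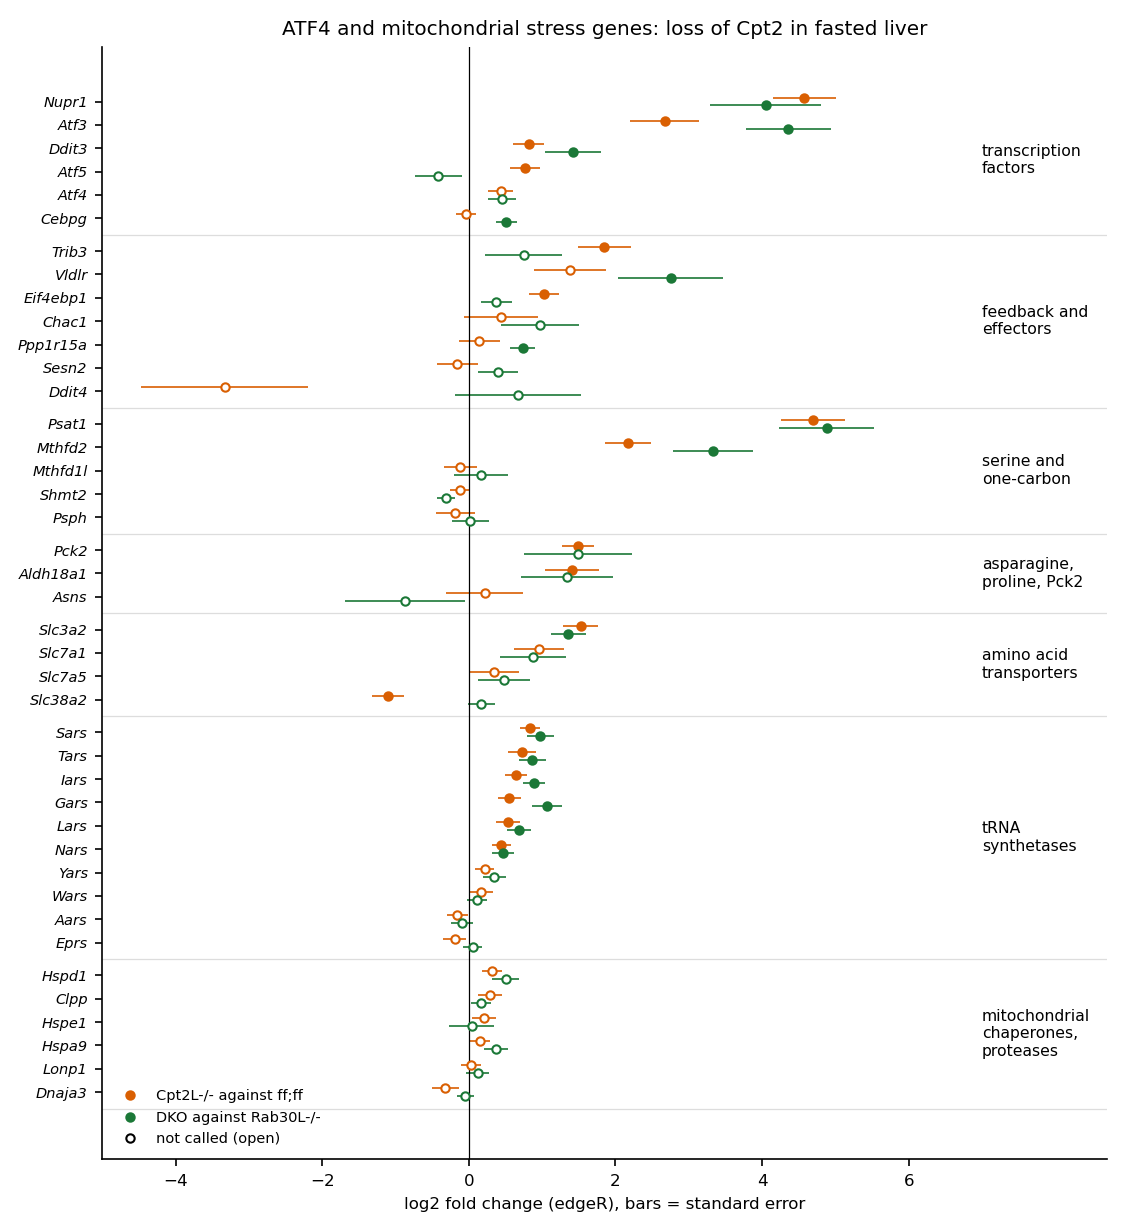
Log2 fold change of the members tested in both comparisons of Cpt2 loss, grouped by role, with standard errors derived from edgeR's test as bars and filled points for called members. Orange points are Cpt2L-/- against ff;ff and green points DKO against Rab30L-/-; the filled points lie to the right of 0 in every role but the chaperones and proteases, with Slc38a2 the filled point to the left.

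Among the transcription factors, Atf3, Ddit3, Nupr1 and Atf5 rose in Cpt2L-/- livers, and Atf4 itself was not called. Atf4 (ENSMUSG00000042406, chr15:80255184-80257541 of GRCm38) was at 122, 125, 157 and 140 CPM in Cpt2L-/- livers and at 67, 104, 120 and 108 CPM in ff;ff livers. These groups did not overlap, but the log2 fold change of 0.43 ± 0.18 (SE) had an adjusted p of 0.0952 in edgeR, and 0.0409 without ff;ff replicate 3. Atf3, a factor of the same family induced by many stresses, was at 17.3, 16.6, 13.2 and 16.7 CPM in Cpt2L-/- and at 0.175, 3.49, 3.42 and 2.6 CPM in ff;ff. The Cpt2L-/- livers were close to each other and all higher, a log2 fold change of 2.67 ± 0.47 (SE, edgeR adjusted p = 0.00225). Nupr1, a small chromatin-associated stress protein, was near the limit of detection in ff;ff at 0.175, 1.36, 0.976 and 0.381 CPM and was at 12.4, 19.3, 26.6 and 15.2 CPM in Cpt2L-/-. It rose 23.9-fold (edgeR adjusted p = 1.84e-05), a size that depends in part on the prior count of the fit, with 2, 23, 14 and 6 counts in the ff;ff libraries. Ddit3, which encodes CHOP, was at 7.75, 10.7, 11.7 and 12.8 CPM against 4.54, 6.74, 6.06 and 6.73 CPM. The groups did not overlap, with a log2 fold change of 0.82 ± 0.21 (SE, edgeR adjusted p = 0.0124) that had an adjusted p of 0.0541 without Cpt2L-/- replicate 4. Ddit3 shares 68 bases with Mars on the opposite strand, so reads there cannot be told apart without strand. In the same way Psph overlaps Cct6a, Yars overlaps C77080, Wars overlaps Wdr25, Dnaja3 overlaps Coro7 and Atf5 overlaps Nup62, and Aldh18a1 holds the pseudogene Gm15801. Atf5, linked to the mitochondrial unfolded protein response, was the most abundant factor per length, at an FPKM of 259 ± 35.7 (SD, n = 4) in Cpt2L-/- and 152 ± 39.7 (SD, n = 4) in ff;ff. On the CPM scale it was at 474, 425, 569 and 578 in Cpt2L-/- and at 197, 278, 363 and 356 in ff;ff, a log2 fold change of 0.77 ± 0.20 (SE, edgeR adjusted p = 0.013). Cebpg, a C/EBP partner of ATF4, lay between 65.4 and 75.5 CPM in Cpt2L-/- and between 61 and 83.5 CPM in ff;ff.

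**Figure D2:**
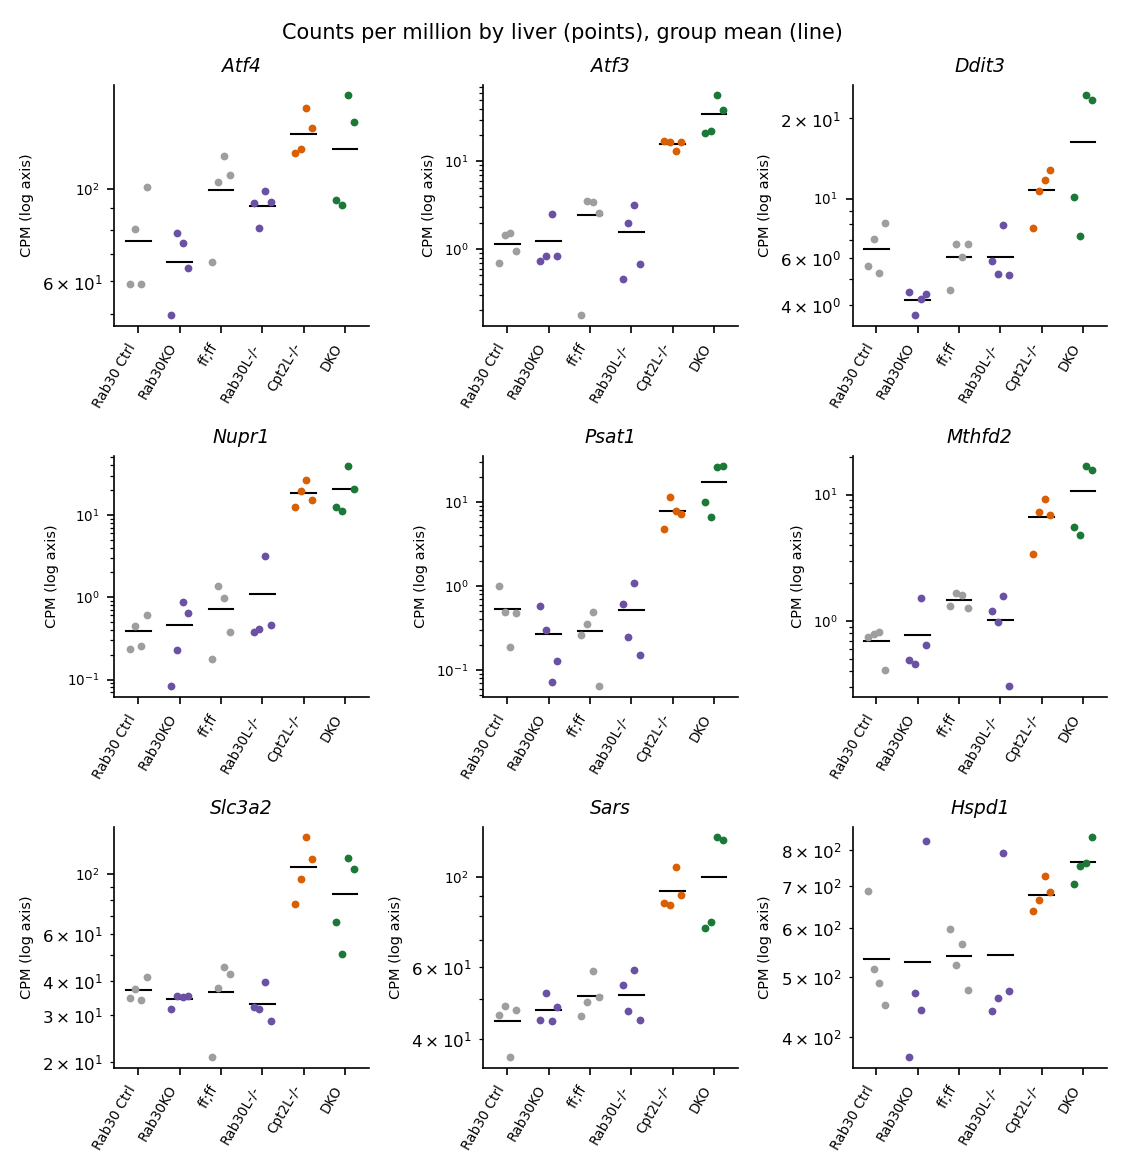
CPM on a log axis in each of the 24 livers for 9 members, with a line at the group mean (n = 4). Atf3, Nupr1, Psat1 and Mthfd2 are low in the 4 groups labelled as having Cpt2 and higher in every Cpt2L-/- and DKO liver. The group means of Atf4 and Hspd1 differ less, although Hspd1 ranges from 371 to 828 CPM within Rab30KO.

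Of the 7 feedback and effector genes tested, 2 were called in Cpt2L-/- livers, both higher. That was 28.6%, where 23.8% of all genes were called and 11.9% called higher. Trib3, the pseudokinase that restrains ATF4 and CHOP, was at 35, 28.1, 33.3 and 22.9 CPM in Cpt2L-/- and at 4.19, 5.32, 16.1 and 7.17 CPM in ff;ff. The groups did not overlap, and the log2 fold change was 1.85 ± 0.36 (SE, edgeR adjusted p = 0.00388). Eif4ebp1, the inhibitor of cap-dependent translation 4E-BP1, was at 55.8, 62.8, 91.7 and 64.6 CPM against 22, 32.8, 42.4 and 36 CPM, a log2 fold change of 1.03 ± 0.20 (SE, edgeR adjusted p = 0.00271). Ppp1r15a, which encodes the phosphatase subunit GADD34 that reverses eIF2 phosphorylation, had a log2 fold change of 0.14 (edgeR adjusted p = 0.756), with livers of both groups interleaved. Chac1, an enzyme that breaks down glutathione, was at 2.75, 2.39, 3.63 and 3.37 CPM in Cpt2L-/- and at 1.05, 1.42, 5.51 and 0.889 CPM in ff;ff. Only ff;ff replicate 3 lay above the Cpt2L-/- livers, and without it the log2 fold change of Chac1 went from 0.44 to 1.41 (edgeR adjusted p = 0.00648). For Ddit4, the mTORC1 inhibitor REDD1, the size of the change rested on the same liver, with 22.9, 41.7, 449 and 29.6 CPM in ff;ff and 12.5 to 14.9 CPM in Cpt2L-/-. Every Cpt2L-/- liver lay below every ff;ff liver, and Ddit4 was called with all 24 libraries in the fit. Its log2 fold change was -3.33 (edgeR adjusted p = 0.083) with that liver and -1.21 (edgeR adjusted p = 0.00059) without it. Vldlr, a lipoprotein receptor that ATF4 controls, had a log2 fold change of 1.38 ± 0.49 (SE, edgeR adjusted p = 0.067), which was 2.19 and called without ff;ff replicate 2, and which DESeq2's Wald test called with all libraries. DESeq2 called 19 members (46.3%, and 27% of all genes), the 18 called by edgeR and Vldlr. For Sesn2, another inhibitor of mTORC1, it was -0.16 (edgeR adjusted p = 0.727). Stc2, a secreted stress glycoprotein, reached at most 0.742 CPM in any of the 24 livers.

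Serine and one-carbon synthesis changed at Psat1 and Mthfd2 alone among the 5 genes tested (40% called, where 23.8% of all genes were). Psat1 (ENSMUSG00000024640, chr19:15904678-15947337 of GRCm38), which makes phosphoserine, was at 4.81, 11.5, 7.84 and 7.18 CPM in Cpt2L-/- and at 0.262, 0.355, 0.488 and 0.0635 CPM in ff;ff. The lowest Cpt2L-/- liver was far above the highest ff;ff liver, and the gene rose 26.0-fold (4.70 ± 0.44 on the log2 scale, SE, edgeR adjusted p = 1.19e-05). With 3, 6, 7 and 1 counts of Psat1 in the ff;ff libraries, this size depends on the prior count of the fit. Mthfd2, the mitochondrial methylene-tetrahydrofolate dehydrogenase, was at 3.4, 7.24, 9.2 and 6.93 CPM against 1.31, 1.66, 1.6 and 1.27 CPM. That was a log2 fold change of 2.17 ± 0.31 (SE, edgeR adjusted p = 0.000266) without overlap. Shmt2, the mitochondrial serine hydroxymethyltransferase that feeds Mthfd2, lay between 158 and 189 CPM in Cpt2L-/- and between 158 and 206 CPM in ff;ff and was not called. Mthfd1l, the next enzyme in mitochondria, and Psph, the phosphatase that completes serine, had log2 fold changes of -0.12 and -0.19 (edgeR adjusted p = 0.756 and 0.656). Phgdh, the first enzyme of serine synthesis, was at or under 0.906 CPM in every liver and was removed by the filter on low counts, and it was not called without the filter. Per length, Shmt2 was by far the most abundant of the 6 in ff;ff, at an FPKM of 61.4 ± 6.89 (SD, n = 4), against 0.426 ± 0.061 for Mthfd2 and 0.0701 ± 0.0431 for Psat1. Even after its rise Psat1 stayed at an FPKM of 1.86 ± 0.67 (SD, n = 4).

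In asparagine, proline and phosphoenolpyruvate synthesis, Pck2 and Aldh18a1 rose and Asns was not called. Pck2, the mitochondrial phosphoenolpyruvate carboxykinase, was at 9.23, 11, 14.4 and 10.9 CPM in Cpt2L-/- and at 4.02, 3.13, 3.55 and 5.33 CPM in ff;ff, all higher, with a log2 fold change of 1.49 ± 0.22 (SE, edgeR adjusted p = 0.000324). Aldh18a1, which starts proline synthesis from glutamate, was low, at 1.09, 1.83, 1.75 and 1.69 CPM against 0.349, 0.591, 0.488 and 0.889 CPM. Its log2 fold change was 1.41 ± 0.37 (SE, edgeR adjusted p = 0.0144). Asns, asparagine synthetase and a classical ATF4 target, varied between livers more than between groups, at 3.14, 15.8, 8.74 and 3.43 CPM in Cpt2L-/- and 11.1, 3.78, 5.65 and 6.28 CPM in ff;ff. The log2 fold change of 0.21 ± 0.53 (SE) turned to -0.41 without Cpt2L-/- replicate 2. Pycr1, the last enzyme of proline synthesis, had 19, 13, 9 and 17 counts in the Cpt2L-/- libraries and 2, 1, 1 and 3 counts in the ff;ff libraries, and was removed by the filter on low counts in this comparison. Pycr1 was called higher without that filter and with all 24 libraries in the fit, and in the latter fit the calls of Pck2 and Aldh18a1 were lost.

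The amino acid transporters moved in both directions. Slc3a2, the heavy chain CD98 shared by several transporters, was at 77.8, 96, 137 and 114 CPM in Cpt2L-/- and at 20.8, 37.6, 45 and 42.5 CPM in ff;ff. Every Cpt2L-/- liver was higher, with a log2 fold change of 1.52 ± 0.24 (SE, edgeR adjusted p = 0.000534). Its light chain Slc7a5 was not called, with a log2 fold change of 0.35 (edgeR adjusted p = 0.499). Another, Slc7a11, the cystine carrier, was removed by the filter on low counts and was called higher without the filter and with all 24 libraries in the fit. It had 0 counts in the 4 ff;ff libraries and 3, 7, 32 and 3 in those of Cpt2L-/-. A count of 0 allows up to 3 counts in a library, so no fold is given. Slc7a1, a carrier of cationic amino acids, had a log2 fold change of 0.96 ± 0.34 (SE, edgeR adjusted p = 0.0588), and was called without ff;ff replicate 1 or Cpt2L-/- replicate 4. Slc38a2 (SNAT2, ENSMUSG00000022462, chr15:96687392-96699730 of GRCm38), a sodium-coupled carrier of neutral amino acids, was the only member called lower on the 8 libraries of this comparison. It was at 145, 127, 132 and 155 CPM in Cpt2L-/- and at 270, 240, 458 and 226 CPM in ff;ff, so every Cpt2L-/- liver was lower, with a log2 fold change of -1.10 ± 0.21 (SE, edgeR adjusted p = 0.00216). Without ff;ff replicate 3, the highest liver, the log2 fold change was -0.82 (edgeR adjusted p = 0.00097).

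Of the 10 cytosolic tRNA synthetases, which load amino acids onto tRNAs, 6 rose in Cpt2L-/- livers, by 1.36-fold to 1.79-fold. That was 60% of them, where 11.9% of all genes were called higher. Sars, for serine, was at 86.5, 85.5, 106 and 90.4 CPM against 45.6, 49.2, 58.8 and 50.7 CPM. The groups were well apart, with a log2 fold change of 0.84 ± 0.14 (SE, edgeR adjusted p = 0.00067). Tars, Iars, Gars, Lars and Nars, for threonine, isoleucine, glycine, leucine and asparagine, had log2 fold changes of 0.72, 0.64, 0.55, 0.54 and 0.44 (edgeR adjusted p = 0.0157, 0.0068, 0.0186, 0.0305 and 0.0191). The calls of Sars and Iars remained with each library left out in turn, and those of Tars, Gars, Nars and Lars were lost in 2, 4, 4 and 5 of 8 such fits. Yars, Wars, Aars and Eprs were not called, with log2 fold changes of 0.22, 0.17, -0.16 and -0.20. Aars, for alanine, lay between 160 and 189 CPM in Cpt2L-/- and between 150 and 211 CPM in ff;ff.

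None of the 6 mitochondrial chaperones and proteases was called in Cpt2L-/- against ff;ff, in either direction, where 23.8% of all genes were. Among so few genes, the absence of a call is near that share. They were among the most abundant members per length, with FPKM values in ff;ff from 33.6 ± 5.13 for Lonp1 to 208 ± 21.1 for Hspd1 (SD, n = 4). Hspd1, the chaperonin Hsp60, was at 638, 664, 727 and 684 CPM in Cpt2L-/- and at 598, 523, 564 and 477 CPM in ff;ff. The groups did not overlap, and the log2 fold change was 0.31 ± 0.14 (SE, edgeR adjusted p = 0.127). Its partner Hspe1, which shares 112 bases with Hspd1 on the opposite strand, had a log2 fold change of 0.21, the matrix Hsp70 Hspa9 of 0.15, the protease Lonp1 of 0.03 and the protease subunit Clpp of 0.29, with adjusted p between 0.225 and 0.906 (edgeR). Dnaja3, a co-chaperone of Hspa9, had a log2 fold change of -0.32 (edgeR adjusted p = 0.241) and stood at 252 CPM in ff;ff replicate 3 against 138 to 157 CPM in the other ff;ff livers.

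Loss of Cpt2 could be read again in livers that also lacked Rab30, since DKO against Rab30L-/- shares no liver with Cpt2L-/- against ff;ff. Here 15 of the 41 members tested were called, all higher, where 14.9% of the 13292 genes tested were called higher and 15.8% lower. The median log2 fold change was 0.50 over the members and -0.012 over all genes. In 12 members every DKO liver lay above every Rab30L-/- liver, which was so for 15.9% of all genes. The direction of the 41 members tested in both comparisons was the same for 32 (78%), and for 66.4% of the 12970 genes tested in both. Atf3, Ddit3, Nupr1, Psat1, Mthfd2, Slc3a2, Gars, Sars, Nars, Tars, Iars and Lars were called higher in both. These 12 made up 66.7% of the 18 members called in the first comparison and 80% of the 15 called in the second, and for all genes the shares called in both in the same direction were 54.6% and 41.9%.

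**Figure D3:**
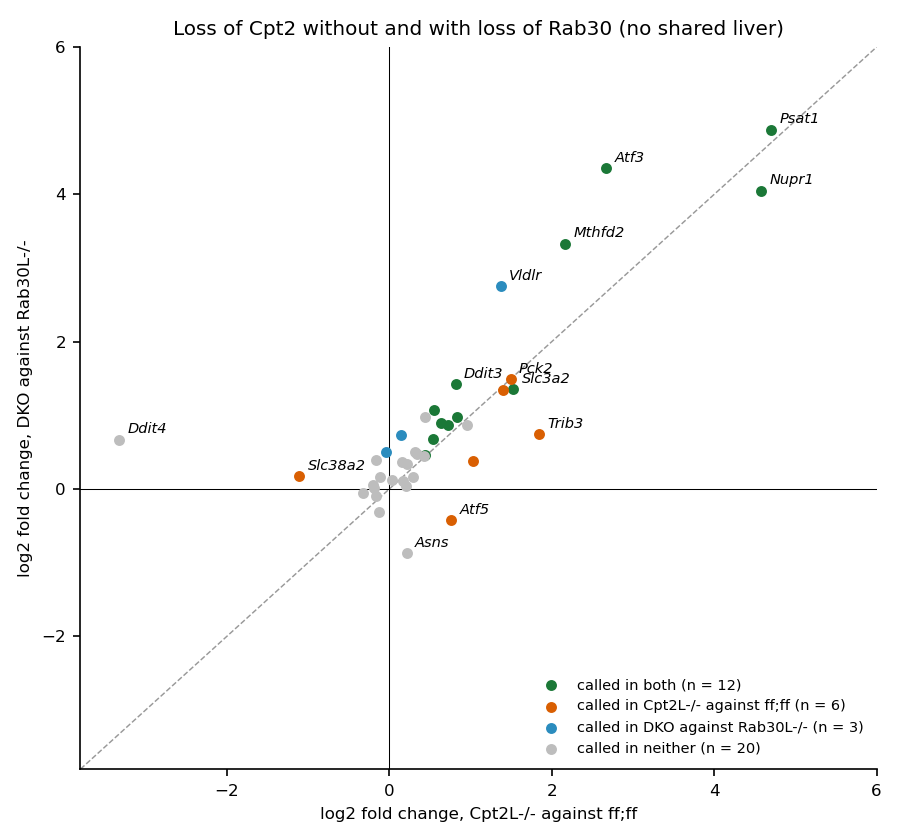
Log2 fold change of the 41 members in Cpt2L-/- against ff;ff (horizontal) and in DKO against Rab30L-/- (vertical), coloured by where they were called, with a dashed line of equality. The 12 members called in both lie in the upper right quadrant, and Slc38a2, Ddit4 and Atf5 lie in quadrants where the signs differ.

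In DKO livers Atf3 was at 20.9, 22.3, 56.4 and 38.5 CPM and in Rab30L-/- livers at 0.453, 1.98, 3.19 and 0.683 CPM. All DKO livers were far above, a 20.5-fold rise (4.36 ± 0.59 on the log2 scale, SE, edgeR adjusted p = 0.00129). Psat1 was at 9.98, 6.71, 26 and 26.5 CPM against 0.604, 0.247, 1.09 and 0.152 CPM, with a log2 fold change of 4.88 ± 0.65 (SE, edgeR adjusted p = 0.000928), and Nupr1 at 12.5, 11.2, 38.6 and 20.4 CPM against 0.377, 0.412, 3.14 and 0.456 CPM, with one of 4.05 ± 0.76 (SE, edgeR adjusted p = 0.00631). All 3 genes had their highest Rab30L-/- value in replicate 3, the deepest library, and without it the log2 fold changes of Atf3, Psat1 and Nupr1 were 5.06, 5.64 and 5.6. Mthfd2 was at 5.52, 4.84, 16.7 and 15.7 CPM against 1.21, 0.99, 1.59 and 0.304 CPM, a log2 fold change of 3.33 ± 0.55 (SE, edgeR adjusted p = 0.00186). Slc3a2 and the synthetases Gars, Sars, Iars, Tars, Lars and Nars had log2 fold changes of 1.36, 1.07, 0.97, 0.89, 0.86, 0.68 and 0.47. The call of Nars was lost in 5 of 8 fits that left out 1 library, and those of the other 6 remained in all 8. Ddit3 was at 10.1, 7.23, 24.4 and 23.4 CPM in DKO and between 5.16 and 7.97 CPM in Rab30L-/-, with a log2 fold change of 1.42 (edgeR adjusted p = 0.0193) that was not called without Rab30L-/- replicate 2 or 4.

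The other 9 members called were called in one of these comparisons alone. Cebpg, Ppp1r15a and Vldlr were called in DKO against Rab30L-/-, with log2 fold changes of 0.51, 0.73 and 2.75 (edgeR adjusted p = 0.021, 0.00833 and 0.0235), beside -0.036, 0.14 and 1.38 in Cpt2L-/- against ff;ff. Cebpg was at 71.7, 77.9, 92.2 and 100 CPM in DKO and at 48.6, 58.5, 73.6 and 60 CPM in Rab30L-/-, where replicate 3 overlapped the DKO livers. Ppp1r15a was at 12.8, 13.9, 19.3 and 14.3 CPM in DKO, above the 7.67 to 10.6 CPM of every Rab30L-/- liver. The call of Cebpg was lost in 4 of 8 fits, those without Rab30L-/- replicate 2 or 4 or DKO replicate 3 or 4. Vldlr was at 32.8, 26.5, 7.8 and 12.9 CPM in DKO and at 0.377, 5.61, 3.82 and 2.05 CPM in Rab30L-/-, and its call was lost without Rab30L-/- replicate 4, DKO replicate 1 or DKO replicate 2, with log2 fold changes between 2.40 and 3.20. Trib3, Eif4ebp1, Pck2, Aldh18a1, Atf5 and Slc38a2 were called in Cpt2L-/- against ff;ff alone. Their log2 fold changes there were 1.85, 1.03, 1.49, 1.41, 0.77 and -1.10, and in DKO against Rab30L-/- 0.75, 0.37, 1.49, 1.34, -0.42 and 0.17. Trib3 was at 21.6, 13.3, 46.2 and 27.8 CPM in DKO and at 29.4, 7.09, 18.3 and 9.87 CPM in Rab30L-/-, with livers of both groups interleaved. Aldh18a1 was at 0.698, 1.16, 4.29 and 2.11 CPM in DKO and at 0.302, 1.32, 1.26 and 0.304 CPM in Rab30L-/-, and its log2 fold change fell to 0.739 (edgeR adjusted p = 0.386) without DKO replicate 3, the highest liver. Pck2 was at 11.1, 2.71, 20 and 27.5 CPM in DKO and at 3.1, 4.54, 11.4 and 2.43 CPM in Rab30L-/-. DKO replicate 2 was as low as Rab30L-/- livers, and without it the log2 fold change of Pck2 was 1.85 (edgeR adjusted p = 0.0449). Without Rab30L-/- replicate 3 that of Pck2 was 2.19 and not called (edgeR adjusted p = 0.0677), and over all 8 such fits it lay between 1.05 and 2.19. Atf4 was at 94.1, 91.8, 168 and 145 CPM in DKO and at 92.6, 80.7, 98.9 and 93 CPM in Rab30L-/-, a log2 fold change of 0.45 (edgeR adjusted p = 0.093) that was called without DKO replicate 1 or 2. The 6 mitochondrial chaperones and proteases were again not called by edgeR, where 30.7% of all genes were. Hspd1 came closest, with a log2 fold change of 0.50 (edgeR adjusted p = 0.0605), and was called by DESeq2's Wald test (adjusted p = 0.0282) and by edgeR without the filter on low counts, a fit that also called Atf4 and lost the calls of Ddit3 and Vldlr. DESeq2 called 17 members in all (41.5%, and 33.5% of all genes), the 15 with Hspd1 and Shmt2. Shmt2 was lower in DKO, at a mean of 163 CPM against 203 CPM in Rab30L-/-, and edgeR called it without Rab30L-/- replicate 1. The log2 fold change of Hspd1 was 0.73 (edgeR adjusted p = 0.00348) without Rab30L-/- replicate 3. In that same fit Hspa9 and Hspe1 were called as well, and this liver held the highest Rab30L-/- level of all 3 genes.

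DKO livers were also compared with their ff;ff littermates, which are the controls of Cpt2L-/- as well. There 14 of 41 members were called, all higher, where 7.87% of all genes were called higher and 8.24% lower. Every DKO liver lay above every ff;ff liver in 14 members and below in 0, which was so for 10.6% and 9.92% of all genes. Psat1 rose 57.6-fold, Nupr1 27.0-fold, Atf3 13.8-fold and Mthfd2 7.24-fold (edgeR adjusted p = 0.000234, 0.00065, 0.00417 and 0.00116). The sizes for Psat1 and Nupr1 depend on the prior count of the fit, since the ff;ff libraries held few counts of them. Vldlr, Aldh18a1, Trib3, Ddit3, Slc3a2, Sars, Gars, Iars, Lars and Hspd1 were the other 10. Hspd1, with a log2 fold change of 0.49 ± 0.14 (SE, edgeR adjusted p = 0.0367), was the only one of the 6 chaperones and proteases that edgeR called. DESeq2's Wald test called 20 members (48.8%, and 20.5% of all genes), the same 14 with Chac1, Hspa9, Nars, Pck2, Slc7a1 and Tars, whose log2 fold changes in edgeR were 1.49, 0.38, 0.42, 1.93, 1.28 and 0.61 (edgeR adjusted p between 0.0519 and 0.156). Of 8 fits that left out 1 library each, 6 lost the call of Hspd1, 6 that of Trib3, 6 that of Aldh18a1, 5 that of Ddit3, 4 that of Lars, 3 that of Vldlr and 1 that of Slc3a2. The log2 fold change of Vldlr was 3.52 without ff;ff replicate 2, and that of Aldh18a1 was 1.18 without DKO replicate 3. Without DKO replicate 3 the number of members called was 9, and without DKO replicate 4 it was 8.

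The DKO livers differed among themselves in this module. Replicates 3 and 4 held the highest DKO value in 8 and 6 of the 15 members called against Rab30L-/- (53.3% and 40%), and replicates 1 and 2 in 1 and 0. Over all genes called higher the shares were 27.3% and 36.9%, so that of replicate 4 was near the background. Psat1, Mthfd2, Ddit3, Gars and Sars each split the DKO livers into a lower pair, replicates 1 and 2, and a higher pair, replicates 3 and 4. Vldlr had the opposite order, with replicates 1 and 2 at 32.8 and 26.5 CPM and replicates 3 and 4 at 7.8 and 12.9 CPM. Over the whole libraries replicates 1 and 2 were also the closest DKO pair, with a chi-square per degree of freedom of 12.21. The other DKO pairs lay between 42.61 and 54.19, so the nearness of replicates 1 and 2 was not particular to this module. In Cpt2L-/- livers, replicate 3 was highest in 9 of the 17 members called higher (52.9%) and in 39.3% of all genes called higher.

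Loss of Rab30 where Cpt2 was labelled intact did not lead to a called member. In Rab30KO against Rab30 Ctrl, 0 of 39 members tested were called by edgeR and 0 by DESeq2, where 0.022% of all genes were called by edgeR and 0.0732% by DESeq2. By edgeR 1 member (2.56%) had an unadjusted p under 0.05, as had 2.21% of all genes. That member was Ddit3, at 4.45, 3.64, 4.19 and 4.4 CPM in Rab30KO and at 5.57, 7.06, 5.25 and 8.07 CPM in Rab30 Ctrl. Every Rab30KO liver was lower, as for 0.652% of all genes (0.659% lay higher throughout), and the log2 fold change was -0.64 ± 0.23 (SE, edgeR adjusted p = 1). In Rab30L-/- against ff;ff, 0 of 38 members were called by edgeR and 0 by DESeq2, where 0.479% of all genes were called by edgeR and 2.23% by DESeq2. By edgeR 2 members (5.26%), Ddit4 and Slc38a2, had an unadjusted p under 0.05, as had 11.2% of all genes. Slc38a2 was at 182, 142, 214 and 218 CPM in Rab30L-/-, below every ff;ff liver as were 2.89% of all genes, with a log2 fold change of -0.66 ± 0.23 (SE, edgeR adjusted p = 0.301), and -0.39 without ff;ff replicate 3. Atf4 had log2 fold changes of -0.17 in Rab30KO against Rab30 Ctrl and -0.14 in Rab30L-/- against ff;ff, with livers of both groups interleaved. The first of these turned to 0.013 without Rab30 Ctrl replicate 4. The median of the members was -0.011 in the whole-body knockout and -0.031 in the liver knockout.

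Where Cpt2 was labelled as lost, the further loss of Rab30 was read from DKO against Cpt2L-/-. In edgeR 0 of 41 members were called, where 1.38% of all genes were called higher and 1.33% lower (2.71% in either direction). An unadjusted p under 0.05 was found for 10 members (24.4%) and for 21.7% of all genes, and DESeq2's Wald test called 3 members (7.32%), Atf3, Slc38a2 and Psat1, and 7.76% of all genes, so both shares of the members were near the background. In 3 members, Atf3, Slc38a2 and Hspa9, every DKO liver lay above every Cpt2L-/- liver, as for 6.29% of all genes. Without DKO replicate 1 Atf3 and Slc38a2 were called, and without DKO replicate 3 Atf5 was. Atf3 had a log2 fold change of 1.12 ± 0.29 (SE, edgeR adjusted p = 0.0752, and 0.00345, DESeq2). Slc38a2 was at 161, 231, 268 and 191 CPM in DKO, above the 127 to 155 CPM of Cpt2L-/-, with a log2 fold change of 0.62 ± 0.16 (SE, edgeR adjusted p = 0.0596, and 0.00899, DESeq2). Atf4 had a log2 fold change of -0.11 (edgeR adjusted p = 0.771) and 0.0093 without DKO replicate 2.

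Whether the loss of Cpt2 had another size with and without Rab30 was tested as an interaction over the 16 livers of the 4 floxed groups, the change from Cpt2L-/- to DKO less that from ff;ff to Rab30L-/-. Of 43 members tested 2 were called (4.65%), 1 in each direction, where 2.2% of all genes were called with a positive interaction and 1.86% with a negative one (4.06% in all), so the share of the members was near the background. Slc38a2 had an interaction of 1.28 on the log2 scale (standard error 0.30, adjusted p = 0.0228, edgeR), which remained called with each of the 16 libraries left out. It fell in Cpt2L-/- against ff;ff, with a log2 fold change of -1.10, and had one of 0.17 in DKO against Rab30L-/- (edgeR adjusted p = 0.515). Pycr1 had an interaction of -2.98 ± 0.77 (SE, edgeR adjusted p = 0.0355), with 2, 1, 1 and 3 counts in ff;ff, 7, 4, 7 and 11 in Rab30L-/-, 19, 13, 9 and 17 in Cpt2L-/- and 8, 3, 5 and 14 in DKO. With the ff;ff libraries at or under 3 counts this size depends on the prior count of the fit, and the call was lost in 8 of 16 fits that left out 1 library. Atf5 was at 538, 356, 763 and 265 CPM in Rab30L-/- and at 295, 256, 497 and 385 CPM in DKO, and its interaction of -1.18 ± 0.40 (SE, edgeR adjusted p = 0.0993) was not called. DESeq2's Wald test called it for Atf5 (adjusted p = 0.0421), as did edgeR without Rab30L-/- replicate 4 (adjusted p = 0.0494). With Atf5, DESeq2 called 3 members (6.98%) and 7.68% of all genes. The interaction of Atf3 was 1.71 ± 0.79 (SE, edgeR adjusted p = 0.226), and 2.4 without Rab30L-/- replicate 3 (edgeR adjusted p = 0.134).

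**Figure D4:**
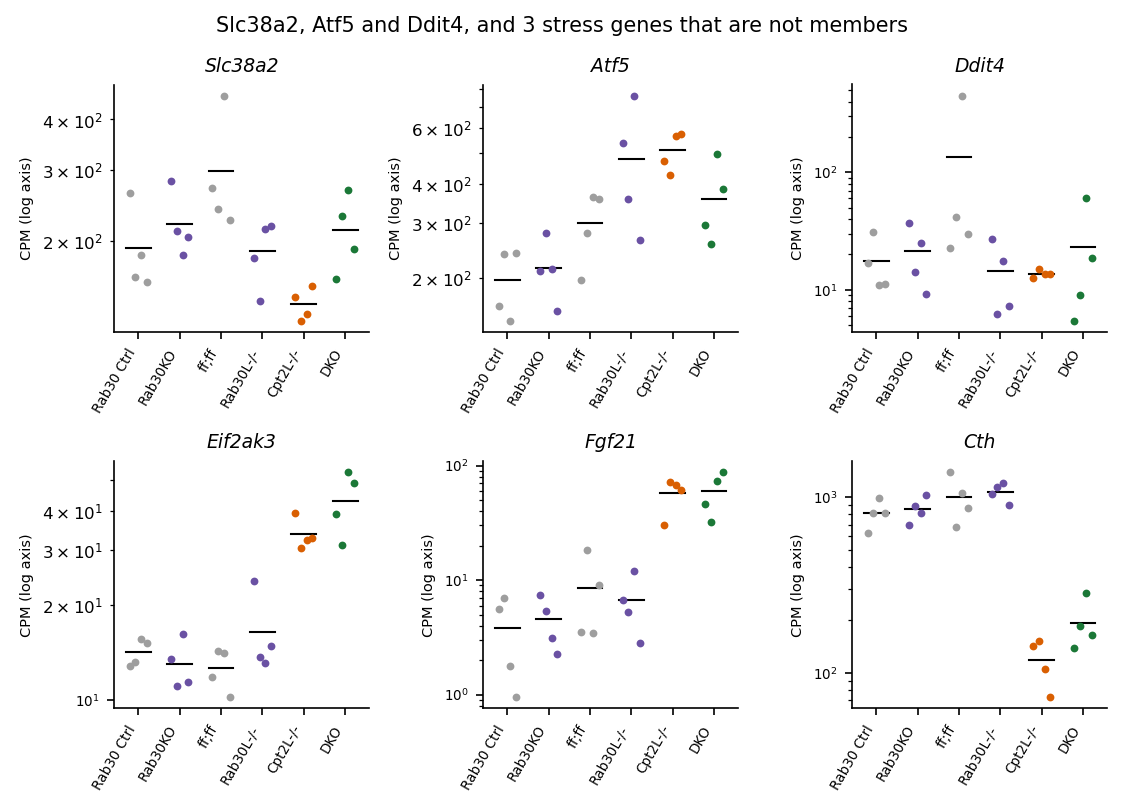
CPM on a log axis in each of the 24 livers, with a line at the group mean (n = 4), for the members Slc38a2, Atf5 and Ddit4 and for Eif2ak3, Fgf21 and Cth, which are not members. Slc38a2 is lowest in Cpt2L-/- and higher in DKO, Ddit4 has 1 ff;ff liver at 449 CPM, and the lower 3 genes separate Cpt2L-/- and DKO from the other 4 groups.

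Genes around the module were read from further lists, given here for Cpt2L-/- against ff;ff and for DKO against Rab30L-/-, in which 23.8% and 30.7% of all genes were called. Of 15 eIF2 kinases, subunits, exchange factors and upstream relays, 3 were called higher and 1 lower in the first and 5 higher in the second, shares of 26.7% and 33.3% that were near those of all genes. Eif2ak3, which encodes the endoplasmic reticulum kinase PERK, was at 39.4, 30.5, 32.4 and 32.9 CPM in Cpt2L-/- and at 11.8, 14.3, 14.1 and 10.2 CPM in ff;ff. It rose in both, with log2 fold changes of 1.41 and 1.40 (edgeR adjusted p = 5.39e-05 and 0.00137). The kinases Eif2ak1 (HRI), Eif2ak2 (PKR) and Eif2ak4 (GCN2) and the mitochondrial relay genes Oma1 and Dele1 were not called in either and are named after their values were seen. Of 10 and 11 other ATF4-linked genes tested, 4 and 5 were called higher and 1 lower in each (50% and 54.5% called). The hormones Fgf21 and Gdf15 had log2 fold changes of 2.73 and 3.17 in the first and 3.13 and 2.68 in the second, and the glycine carrier Slc6a9 1.52 and 2.11. The first value of Fgf21 was 3.41 without ff;ff replicate 2. Cth, which makes cysteine from cystathionine, fell from between 680 and 1390 CPM in ff;ff to between 72.9 and 152 CPM in Cpt2L-/-, with log2 fold changes of -3.09 and -2.48 (edgeR adjusted p = 1.18e-05 and 3.6e-05).

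Of 10 other cytosolic tRNA synthetases 4 and 5 were called higher (40% and 50%). Of 17 mitochondrial ones 3 were called higher in the first and 1 higher and 1 lower in the second, and these shares of 17.6% and 11.8% were below those of all genes. Among 8 other mitochondrial chaperones and proteases, Grpel2, a nucleotide exchange factor of the matrix Hsp70, rose in both, with log2 fold changes of 1.40 and 1.61 (edgeR adjusted p = 2.84e-05 and 8.5e-05), and 1 other was called higher in the second (12.5% and 25% called). Of 10 other folate and one-carbon genes, 1 was called higher and 4 lower in the first and 2 higher and 3 lower in the second (50% called in each). Aldh1l1, the cytosolic formyl-tetrahydrofolate dehydrogenase, fell in both, with log2 fold changes of -2.22 and -1.71. Of 10 genes of the endoplasmic reticulum unfolded protein response, none was called higher and 5 were called lower in the first, and 1 was called higher and 5 lower in the second (50% and 60% called). Edem1, which helps to clear misfolded glycoproteins, fell by 1.28 and 0.88 on the log2 scale (edgeR adjusted p = 4.42e-05 and 0.000438).

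Markers of liver cells were read in the same comparisons, in which 11.9% and 15.8% of all genes were called lower. The 6 hepatocyte markers summed to 47800 to 56800 CPM in Cpt2L-/-, 62100 to 76100 in DKO, 94000 to 123000 in ff;ff and 80400 to 94300 in Rab30L-/-. Most of this sum was Alb, at a mean of 83070 CPM in ff;ff beside 10580 CPM for Cps1, the next highest. All 6 had negative log2 fold changes in each comparison of Cpt2 loss, and 2 of 6 were called lower in each (33.3%). The 6 Kupffer cell markers summed to 105 to 159 CPM in Cpt2L-/- and 129 to 244 in ff;ff, with 3 called lower, and to 109 to 129 CPM in DKO and 177 to 530 in Rab30L-/-, with 5 called lower. None of the 7 stellate cell markers was called in these comparisons. In Cpt2L-/- against ff;ff both blood markers tested were called lower, with log2 fold changes of -1.78 for Hba-a1 and -1.42 for Hbb-bs, as was 1 of 5 endothelial markers, Clec4g at -0.65, and in DKO against Rab30L-/- none of these was called. The bile duct marker Sox9 was called lower in both, at -2.26 and -2.01, the 1 called of 4 and 3 tested, and no defining marker was at 0 in any of the groups. The part of these shifts in the changes of the members was not tested.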

How the data were processed

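Members and gene lists were chosen with earlier results of these data known. The libraries were made, sequenced and tested in pairs by the company Novogene for the authors, and the submitters' processing notes name HISAT2, DESeq2 and GRCm38 (mm10). The counter, annotation and strand setting are not given in the sources used here. The authors deposited raw counts per gene, used for all tests, and FPKM values by an unstated formula, used for levels per length alone. Their normalized counts and their tables of fold changes and p-values were not used. Counts were filtered by filterByExpr, scaled by TMM and fitted with edgeR 4.0.16 in R 4.3.3 (glmQLFit with robust estimation, glmQLFTest) on the 8 libraries of each comparison, or on 16 for the interaction. The tests were tested on simulated counts. Alternatives were DESeq2's size factors, DESeq2 1.42.0's Wald test, no filter, at least 10 counts in every library, all 24 libraries in the fit, and each library left out. All members, any called in a comparison of Rab30 loss or the interaction, and up to 4 called genes of each further list (all called ones of the upstream and ATF4-linked lists) could be named. The labels give 4 samples a group as separate animals. The floor for a count of 0 covers counting error only, while SE and SD include the spread between livers. As edgeR's test returns no SE, each was derived as the absolute log2 fold change divided by the square root of the test's F statistic. It is least certain for genes with few counts.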

Additional observations from a re-analysis of the deposited data

Results flagged for a closer look

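Within groups of 4 livers, 22 of 255 sets of CPM values (8.63%) held a liver whose gap to its neighbour passed Dixon's critical value, where chance gives about 1 in 20. In ff;ff replicate 3, Ddit4 stood at 449, Dnaja3 at 252 and Chac1 at 5.51 CPM. In the other ff;ff livers, Psph stood at 6.03 CPM in replicate 1 and Vldlr at 6.8 CPM in replicate 2. Rab30L-/- replicate 3 was high for Nupr1 (3.14 CPM), Hspd1 (792 CPM) and Hspe1 (200 CPM), and Rab30L-/- replicate 4 for Slc7a11 (1.14 CPM). Rab30 Ctrl replicate 4 was high for Chac1 (4.34 CPM) and Asns (8.75 CPM) and low for Mthfd2 (0.407 CPM) and Aldh18a1 (0.814 CPM), and Rab30 Ctrl replicate 1 was high for Slc7a11 (1.33 CPM). Rab30KO replicate 1 was high for Pck2 (9.55 CPM) and low for Slc3a2 (31.5 CPM), replicate 3 was high for Atf3 (2.53 CPM), and replicate 4 was high for Vldlr (31.4 CPM) and low for Eif4ebp1 (17.9 CPM). Cpt2L-/- replicate 3 was high for Slc7a11 (2.07 CPM), Cpt2L-/- replicate 4 was low for Slc7a1 (1.25 CPM), and DKO replicate 3 was high for Chac1 (13.1 CPM).

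In the test of the interaction 2 of 43 members (4.65%) were called, near the 4.06% of all genes, with 1.28 for Slc38a2 and -2.98 for Pycr1 on the log2 scale (adjusted p = 0.0228 and 0.0355, edgeR). The call of Slc38a2 remained with each of 16 libraries left out, and that of Pycr1 was lost in 8 of these 16 fits.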

How the results depend on the processing

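No paired analysis was possible because the labels number the animals and give the groups no shared replicate numbers. DESeq2's size factors changed no call and no count by more than 1.5 times. The number of members called stayed within 1.5 times in Cpt2L-/- against ff;ff, DKO against ff;ff and DKO against Rab30L-/- under the alternatives that kept all libraries, although at least 10 counts in every library removes Nupr1, Psat1 and Atf3 from testing. The members called were exchanged in part. With all 24 libraries the calls of Aldh18a1 and Pck2 were lost in Cpt2L-/- against ff;ff and that of Hspd1 in DKO against ff;ff. Without a filter the calls of Ddit3, Slc3a2, Trib3 and Vldlr were lost in DKO against ff;ff and those of Ddit3 and Vldlr in DKO against Rab30L-/-. In DKO against Cpt2L-/- the number of members called went from 0 to 3 with DESeq2's Wald test and to 1 without a filter. In the interaction it went from 2 to 1 without a filter and with at least 10 counts. All genes called in Rab30KO against Rab30 Ctrl (3) became 10 with DESeq2, 6 without a filter, 0 with at least 10 counts and 9 with all 24 libraries. In Rab30L-/- against ff;ff (64) they became 298, 240 and 25 under the first 3 of these. In DKO against Cpt2L-/- (360) they became 1032 with DESeq2, 705 without a filter and 114 with all 24 libraries, and in the interaction (571) 1080 with DESeq2 and 374 with all 24 libraries. The cause was not tested.

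With each library left out, members called ranged from 14 to 21 in Cpt2L-/- against ff;ff, 8 to 15 in DKO against ff;ff, 0 to 2 in DKO against Cpt2L-/-, 11 to 18 in DKO against Rab30L-/- and 1 to 2 in the interaction. All genes called ranged from 0 to 4 in Rab30KO against Rab30 Ctrl, 23 to 93 in Rab30L-/- against ff;ff, 57 to 445 in DKO against Cpt2L-/- and 300 to 679 in the interaction. The log2 fold change reversed for Atf4 (-0.266 to 0.0135) and Chac1 (-1.6 to 0.237) in Rab30KO against Rab30 Ctrl without Rab30 Ctrl replicate 4. It also reversed in Cpt2L-/- against ff;ff for Ppp1r15a (-0.0841 to 0.41) without ff;ff replicate 1 and Asns (-0.406 to 0.56) without Cpt2L-/- replicate 2, and in DKO against Cpt2L-/- for Atf4 (-0.297 to 0.00929) without DKO replicate 2. None of these was called. Depth limits Stc2, Phgdh, Pycr1 and Slc7a11, which had few counts in most libraries.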
